A study of Mus musculus with 3 samples.

Results

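Irx1 to Irx6, Tgif1, Tgif2 and Mkx are 9 of the TALE homeobox genes of the mouse, the class to which Meis2 itself belongs. They were taken by name, out of 21887 protein-coding genes, and each was followed over its gene body and the 50 kb on either side. CUT&Tag, in which an antibody directs a transposase to cut and tag the DNA near a bound protein, had been run on the lateral ganglionic eminence (LGE), the embryonic source of striatal projection neurons. All libraries came from wild-type CD1 embryos at E14.5, with 100000 cells each. There were 2 libraries with a mouse polyclonal antibody to MEIS2, used as replicates, and 1 control library in which no antibody was used. The labels do not say whether the replicates came from separate litters or dissections, and the control does not show what an unrelated antibody would bind. The tissue is a mixture of cells, so a peak in few cells and a weak peak in many cannot be told apart.

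TALE homeodomain proteins carry a loop extension of 3 amino acids between the first helices of the homeodomain. The Iroquois (Irx) genes lie in 2 clusters of 3 that arose by duplication of an ancestral cluster, and they pattern the neural tube, heart and limb. TGIF1 and TGIF2 are repressors that act on SMAD and retinoid signalling, and human TGIF1 mutations are a cause of holoprosencephaly. MKX (Mohawk) is a repressor best known from tendon. MEIS proteins bind the core TGACAG, often beside a PBX protein, and TGIF proteins bind the same core.

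On the autosomes and sex chromosomes the deposited lists held 78060 peaks for MEIS2 replicate 1, 82093 for replicate 2 and 9869 without antibody. The caller kept 7618406, 6559629 and 6337375 tags of 74259592, 79760948 and 72763762 for these libraries. The shares set aside as repeats of a position were 0.9, 0.92 and 0.91. In the windows of the 9 genes, 1034 kb in all, replicate 1 had 48 peaks, replicate 2 had 44 and the library without antibody had 2. A replicate 1 peak is called reproducible here if any base of it is shared with replicate 2 and none with the no-antibody list. By that rule 30 of the 48 (62.5%, 95% Wilson interval 48.4 to 74.8) were reproducible, and 61.2% of replicate 1 peaks were over the whole genome. Without the need for a partner, the peaks clear of the no-antibody list numbered 46 in replicate 1 and 42 in replicate 2. With a −log10 q of at least 5 asked of every list, 16 peaks were reproducible, and none of these was at Irx6. Where the shared part had to be at least 50% of both peaks, Irx5 had 0 reproducible peaks. By the rule as first given, each of the 9 windows held at least 1 reproducible peak, as did 92.8% of the windows of all protein-coding genes. The counts were 4 at Irx3, 2 at Irx5, 1 at Irx6, 2 at Irx1, 5 at Irx2, 4 at Irx4 and 4 each at Tgif1, Tgif2 and Mkx. The 9 windows had a median of 3.46 and a mean of 2.92 reproducible peaks per 100 kb, and those of all protein-coding genes had a median of 2.71 and a mean of 3.24, so the order turned with the measure. The median count per window was 4 in both. No-antibody peaks touched the windows of 2 genes, Irx6 and Irx1, and 26.6% of the windows of all protein-coding genes. With 2 MEIS2 libraries and 1 control there is no test over samples, and the values below are descriptions. Peak lists do not measure expression, so neither the activity of these genes nor the identity of the tissue was checked.

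**Figure D1:**
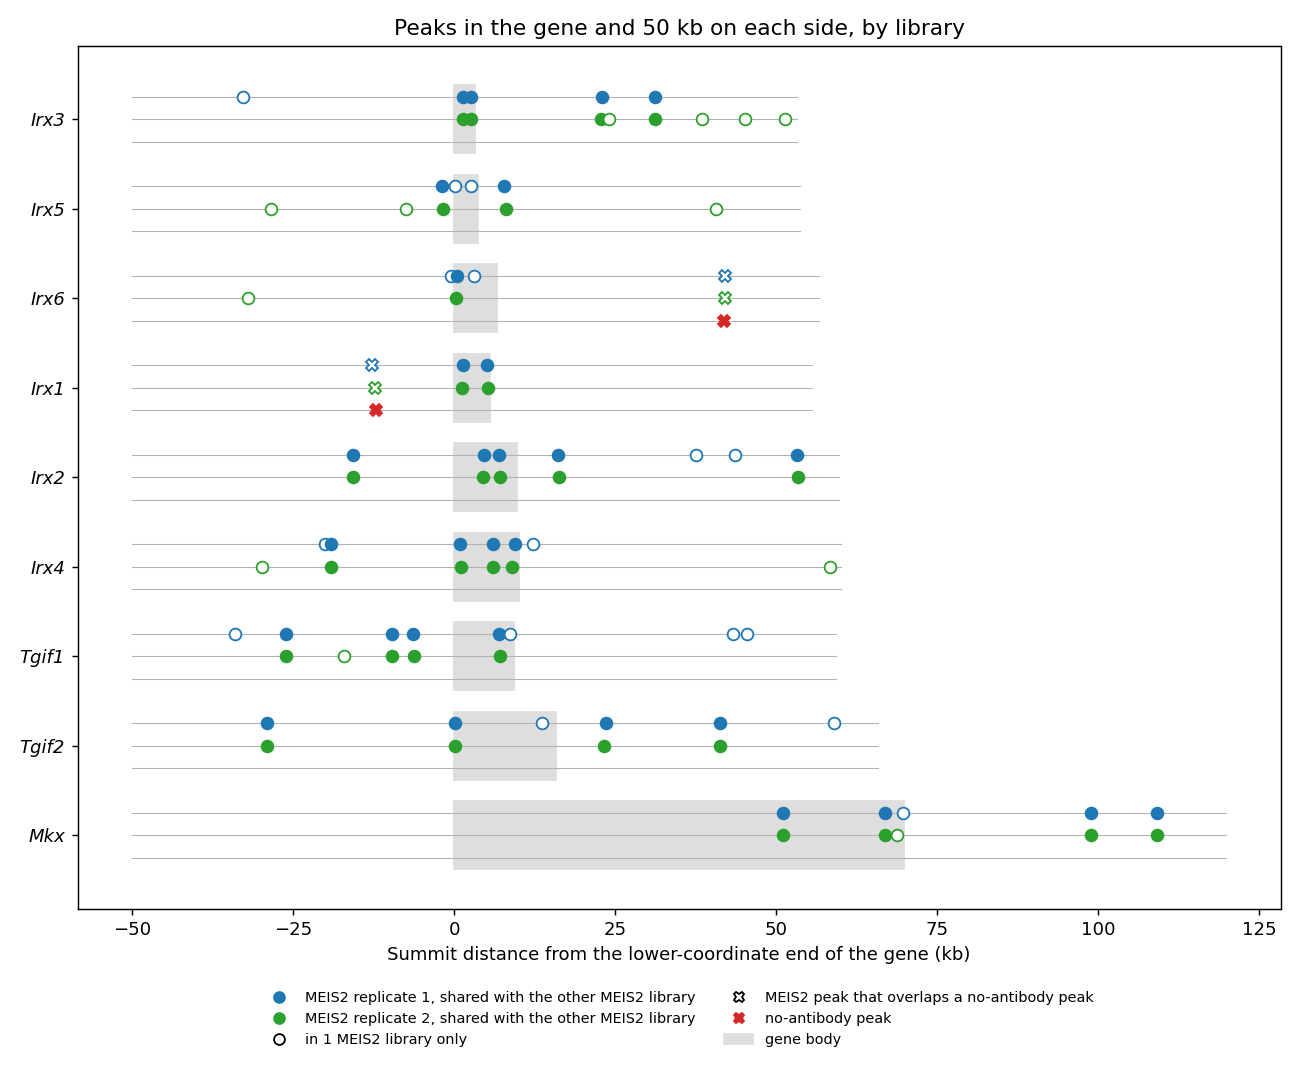
Summits of all peaks in the 9 windows, plotted by distance in kb from the lower-coordinate end of each gene, with a line each for MEIS2 replicate 1, replicate 2 and the no-antibody library from top to bottom. Filled circles are peaks shared by the MEIS2 libraries, open circles are in 1 of them, crosses mark the 2 sites found in all 3 libraries, and grey boxes are gene bodies. Of the 18 reproducible peaks of the Irx genes, 10 lie in the short gene bodies, and the 2 sites shared with the control lie outside those bodies, at Irx6 and Irx1.

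Start sites carried a reproducible MEIS2 peak in 7 of the 9 genes. The exceptions were Irx5 and Mkx. The share over all protein-coding genes was 54.1%, and for no-antibody peaks it was 0.142%, with none of the 9 genes among them. A peak was counted at a start site when its summit was within 1 kb of a RefSeq start (Irx2, Irx3, Irx4, Tgif1 and Tgif2) or, for the 4 genes whose starts are not in the table used, within 1 kb of either gene end. The RefSeq promoter stretches of Irx2, Irx4, Tgif1 and Tgif2 that lie under such a peak are given here, in build GRCm38.p6 (mm10). Each runs 5′ to 3′ from 250 bases before the start to 50 after it, and capitals mark the core TGACAG.
Irx2, chr13:72628570-72628869, plus strand: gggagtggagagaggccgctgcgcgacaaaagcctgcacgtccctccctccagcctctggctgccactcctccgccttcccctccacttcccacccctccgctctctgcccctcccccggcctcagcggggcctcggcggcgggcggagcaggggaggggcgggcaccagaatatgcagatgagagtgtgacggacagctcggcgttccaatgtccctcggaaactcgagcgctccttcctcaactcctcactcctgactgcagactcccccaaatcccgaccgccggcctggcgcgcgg
Irx4, chr13:73260247-73260546, plus strand: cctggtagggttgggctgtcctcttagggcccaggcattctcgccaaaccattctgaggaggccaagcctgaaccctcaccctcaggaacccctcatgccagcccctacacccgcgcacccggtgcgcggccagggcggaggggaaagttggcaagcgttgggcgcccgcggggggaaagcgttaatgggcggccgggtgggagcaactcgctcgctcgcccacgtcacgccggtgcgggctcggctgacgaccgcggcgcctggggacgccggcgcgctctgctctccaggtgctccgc
Tgif1, chr17:70851161-70851460, minus strand: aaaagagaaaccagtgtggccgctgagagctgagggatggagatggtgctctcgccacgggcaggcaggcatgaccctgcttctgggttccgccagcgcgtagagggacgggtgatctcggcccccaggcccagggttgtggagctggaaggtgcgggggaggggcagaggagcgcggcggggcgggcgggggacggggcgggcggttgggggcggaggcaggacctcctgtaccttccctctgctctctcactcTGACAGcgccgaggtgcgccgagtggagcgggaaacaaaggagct
Tgif2, chr2:156839757-156840056, plus strand: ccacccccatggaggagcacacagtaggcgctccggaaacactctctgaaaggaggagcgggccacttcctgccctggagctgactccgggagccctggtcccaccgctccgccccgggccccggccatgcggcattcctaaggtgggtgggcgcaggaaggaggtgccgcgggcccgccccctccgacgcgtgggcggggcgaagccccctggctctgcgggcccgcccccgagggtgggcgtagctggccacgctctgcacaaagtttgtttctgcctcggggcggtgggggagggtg

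The Irx2 peak covered all 300 bases of its stretch, with summits 274 and 60 bases after the start in replicates 1 and 2. At Irx4 the peak took in 222 bases, and its summits lay 35 and 79 bases after the start. At Tgif2 it took in 294 bases, and its summits lay 86 and 107 bases before the start. Tgif1 has 5 annotated starts, of which only the one shown was under a reproducible peak, with 172 bases covered and summits 48 bases after and 66 bases before the start. The stretches of all 5 genes, 9 in number, were searched on both strands for TGACAG, the PBX-MEIS composite TGATTGAC, the PBX-HOX type TGATTTAT and the IRX core ACATGT. The Tgif1 stretch shown holds TGACAG 6 bases after the start, inside the peaks of both replicates. Another Tgif1 stretch, under no peak, holds TGACAG as well, and a further one, also under no peak, holds TGATTTAT. None of the 4 motifs was found in the Irx2, Irx3, Irx4 or Tgif2 stretches. Among 32817 stretches of the same length, 19.2% held TGACAG, 0.771% TGATTGAC, 0.978% TGATTTAT and 5.28% the IRX core. The MEIS core was in 14.7% of the 11002 stretches under a reproducible peak and in 21.5% of the others. The other motifs were also rarer under such peaks. TGATTGAC was in 0.709% and 0.802%, TGATTTAT in 0.218% and 1.36%, and the IRX core in 1.46% and 7.21%. These shares were not matched for base composition, and its part in them was not tested. The 4 stretches shown had 68.7 to 72.3% G and C, and all 9 ranged from 37.3 to 72.3%. The median of the 32817 stretches was 52.7%.

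Irx3, on chromosome 8, takes part in patterning of the ventral neural tube and the heart. Both of its gene-body peaks had many tags but low fold enrichment, the ratio of tags at the summit to those expected from the surroundings. The one nearer the start, at chr8:91800696-91801534, had its summit 588 bp inside the gene. Its pileup, the height of the stack of tags over the summit, was 25 and 17 tags, with fold enrichments of 4.74 and 5.17 in replicates 1 and 2. The other, at chr8:91799675-91799924, had 21 and 13 tags with fold enrichments of 4.21 and 4.22. Outside the gene, a narrower peak inside the noncoding genes Irx3os and Gm39223 (chr8:91821168-91821544) had fewer tags, 14 and 11, but higher fold enrichments of 8.14 and 7.14. The fourth, at chr8:91829599-91829770 in the same noncoding genes, had 9 and 6 tags. Replicate 2 had 4 further peaks along Irx3os, with 4 to 8 tags, that replicate 1 lacked.

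Irx5, a cardiac and retinal regulator in mice, was the Irx gene without a reproducible peak in its body. Replicate 1 had peaks in the body at chr8:92357731-92358242 and chr8:92360142-92360653, with 18 and 25 tags and fold enrichments of 3.49 and 4.38. The nearest replicate 2 peaks were 1673 and 4084 bp away from them. The shared peak with the most tags, at chr8:92355758-92356271, overlapped the end of the neighbouring noncoding gene Crnde, 1913 bp from Irx5, with 24 and 17 tags and fold enrichments of 4.72 and 5.06. Another lay on the other side, at chr8:92365458-92365629, with 10 tags in each replicate and fold enrichments of 4.35 and 5.87. Irx6, which acts in retinal bipolar cells of the mouse, had 1 reproducible peak, 426 bp inside one end at chr8:92674413-92674858. It had 15 and 7 tags and fold enrichments of 5.53 and 3.87. Its replicate 2 partner had a −log10 q of 2.61, and replicate 1 had another 2 peaks within or beside the gene that replicate 2 lacked. The window's largest peak, over the pseudogene Gapdh-ps16 at chr8:92715853-92716940 (33 and 24 tags), was not counted, because the no-antibody library had a peak of 11 tags there.

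In the other cluster, on chromosome 13, the gene bodies carried 2 to 3 reproducible peaks each. Irx1 had both of its peaks in the body, at chr13:71963056-71963684, 440 bp from one end (18 and 14 tags, fold enrichments of 5.11 and 5.55), and at chr13:71959337-71959792 (17 and 9 tags, 4.55 and 3.49). Its flanks held 1 site, the broadest of its window at 1367 bp, chr13:71945184-71946550, with 47 and 34 tags. That site was not counted either, since the no-antibody library had a peak of 11 tags at chr13:71946007-71946335. Irx2 had the most reproducible peaks of the 9 genes. The peak over its start, at chr13:72628534-72629371, also overlapped the noncoding gene Gm20554, with 24 and 16 tags and fold enrichments of 4.86 and 5.05. A second one in the body (chr13:72631407-72631578, 14 and 13 tags) had the lowest fold enrichment of any reproducible peak in the 9 windows in replicate 1, 3.07, and 4.22 in replicate 2. The Irx2 peak with the most tags in replicates 1 and 2 and the highest fold enrichment was distal, 43.5 kb beyond the gene near the noncoding gene Gm41001, at chr13:72677369-72678013, with 40 and 22 tags and fold enrichments of 13.6 and 9.001. The other Irx2 peaks lay 15.7 kb outside the gene at one side (chr13:72608650-72608856, 9 tags in each replicate) and 6.33 kb at the other (chr13:72640409-72640757, 12 and 8 tags). Irx4, known for ventricular identity in the heart, had 3 peaks in its body and 1 outside. The start-site peak, at chr13:73260325-73260802, had 20 and 12 tags and fold enrichments of 6.13 and 5.32. The body peaks further in had 16 and 7 tags (chr13:73265504-73265685, fold enrichments of 4.29 and 3.15) and 14 and 11 tags (chr13:73268578-73269035, 4.29 and 5.26). The flanking peak, chr13:73240199-73240587, had 14 and 7 tags and fold enrichments of 8.62 and 5.10.

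Tgif1 and Tgif2 had 1 reproducible peak each in the gene body, at a start site. The Tgif1 peak (chr17:70851048-70851332) had 12 and 8 tags, with fold enrichments of 4.50 and 4.45. A stronger Tgif1 peak, chr17:70852777-70853232 with 20 tags and a fold enrichment of 7.18, lay 636 bp from the most upstream start but was called in replicate 1 only. The highest Tgif1 value came from chr17:70837702-70837976, 6.37 kb outside the gene (17 and 10 tags, 9.95 and 6.30). The remaining Tgif1 peaks were chr17:70834476-70834683, with 10 and 6 tags, and chr17:70818033-70818457, with 9 and 6 tags and inside the neighbouring gene Dlgap1. The Tgif2 peak was the widest of all 30, 1611 bp at chr2:156839763-156841373, and also covered the end of the predicted gene LOC115486128. It had 22 and 19 tags and fold enrichments of 5.16 and 6.06. The other Tgif2 peaks were at an end of Rab5if (chr2:156862753-156863566, 8.15 and 7.14), inside Sla2 (chr2:156880925-156881354, 6.58 and 9.48) and 29.1 kb outside Tgif2 (chr2:156810582-156810895, 11.0 and 6.38). Of the 30 peaks, 4 had their summit outside the named gene and nearer to another protein-coding gene, and these lay around Tgif1 and Tgif2.

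Mkx, on chromosome 18, had the peak with the highest fold enrichment of the 9 windows. It lay 29.0 kb outside the gene, in the noncoding gene Gm46633 at chr18:7033608-7033912, with 26 and 32 tags. Its fold enrichments of 15.9 and 17.8 placed it at percentile 97.5 of all 47809 reproducible peaks by the lower of the replicate values. Inside the gene, chr18:6985937-6986234 had 16 tags in each replicate and fold enrichments of 10.00 and 10.4, and chr18:7001504-7001983 had 17 and 12 tags (5.91 and 4.81). The last one, chr18:7043996-7044235, overlapped the pseudogene Gm10350, with 11 and 7 tags. At the higher-coordinate end of Mkx the replicates did not meet. The replicate 1 peak there, chr18:7004518-7005242, and the nearest replicate 2 peak were 651 bp apart, so the gene has no start-site call.

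**Figure D2:**
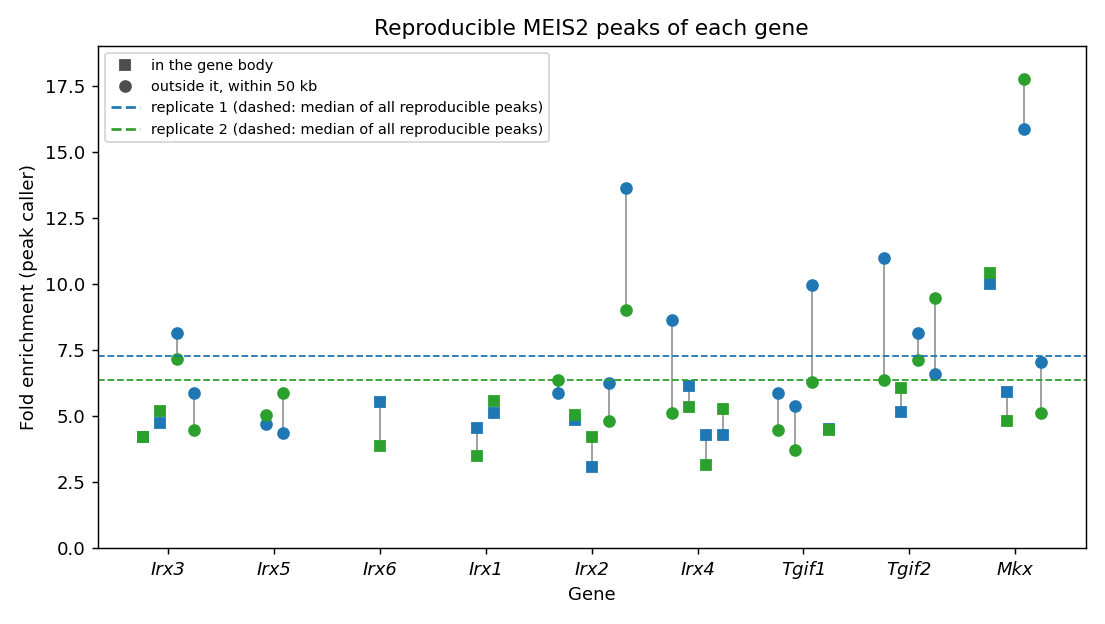
Fold enrichment given by the peak caller for each reproducible peak of the 9 genes, with replicate 1 in blue and replicate 2 in green and a grey line joining the values of a peak. Squares lie in the gene body, circles outside it, and dashed lines are the medians of all reproducible peaks, 7.26 and 6.38. The peak outside Mkx at 15.9 and 17.8 stands highest, and the squares of the Irx genes lie below both lines.

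Fold enrichment around these genes was mostly below that of the genome. Of the 30 reproducible peaks, 22 had a lower-of-replicates fold enrichment under 5.91, the median of all reproducible peaks, and their own median was 4.84. The 10 peaks in Irx gene bodies ranged from 3.07 to 5.32 with a median of 4.25. The 8 peaks in Irx windows outside the bodies had a median of 4.95, and the 8 outside the Tgif and Mkx bodies had 6.34. The pileups of the Irx body peaks were not low, with medians of 17.5 and 12.5 tags beside 17 and 12 over all reproducible peaks. Outside the bodies the medians were lower, 13 and 9.5 tags in Irx windows and 16.5 and 9.5 in Tgif and Mkx windows.

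The surroundings of the Irx body peaks held more tags than those of most reproducible peaks. The caller set each peak against the tags of the 10 kb around it, or against the genome mean where that was higher, and the number of those tags can be worked back from the deposited pileup and fold enrichment. It came out whole, within 0.05 tags, for 100% of the peaks above the genome mean in each library. Because it follows from pileup and fold enrichment, it is another view of those values and not a separate measurement. The genome mean was 40.7 tags in 10 kb for replicate 1, 35.1 for replicate 2 and 33.9 for the no-antibody library. The 10 kb around the Irx3 start-site peak held 261 tags in replicate 1 and 153 in replicate 2, which is 6.41 and 4.36 times the genome mean. Around the Irx2 start-site peak there were 241 and 146 tags (5.92 and 4.16 times), and around the Crnde peak next to Irx5 250 and 158 (6.14 and 4.50 times). The body peaks of Irx1 had 172 and 158 tags in replicate 1 and 115 and 105 in replicate 2, and the Irx4 start-site peak had 141 and 89. Irx6 was the lowest, with 110 and 66 tags, 2.70 and 1.88 times the mean. At Irx5, whose body peaks were called in replicate 1 only, the level there was 6.33 and 7.04 times the mean in that library.

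Over the 10 Irx body peaks the median regional level was 4.22 times the genome mean in replicate 1 and 3.14 times in replicate 2, and none was as low as the mean. All reproducible peaks had medians of 1.69 and 1.51, and those at start sites or gene ends 2.04 and 1.62. A level of at least 3 in both replicates, a limit chosen after the values were seen, was reached by 5 of the 10 Irx body peaks and by 18.3% of all reproducible peaks. Outside the bodies it was reached by 1 of 8 Irx peaks, the one at Crnde. Tgif2 was alone in reaching it among the 4 body peaks of Tgif1, Tgif2 and Mkx, with 201 and 142 tags. The Mkx body peak at chr18:7001504-7001983 fell just short of it, with levels of 2.92 and 2.99. The peak of highest fold enrichment, outside Mkx, had a level no higher than the genome mean in replicate 1 and of 1.51 in replicate 2, and the distal Irx2 peak had 2.87 and 2.74. Peaks of 1 gene share much of the same 10 kb, and a peak's own tags are part of the count, so the 10 values are not independent. For the no-antibody library the count can be read only at its own peaks. At the site outside Irx1 the MEIS2 replicates had 252 and 181 tags, 6.19 and 5.16 times their means, against 39 tags in the no-antibody library, 1.15 times its mean. At Gapdh-ps16 the MEIS2 replicates had levels of 2.85 and 2.48 and the no-antibody library 1.12. At the Irx gene bodies the control level was not measured, and its part in the MEIS2 level was not tested.

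**Figure D3:**
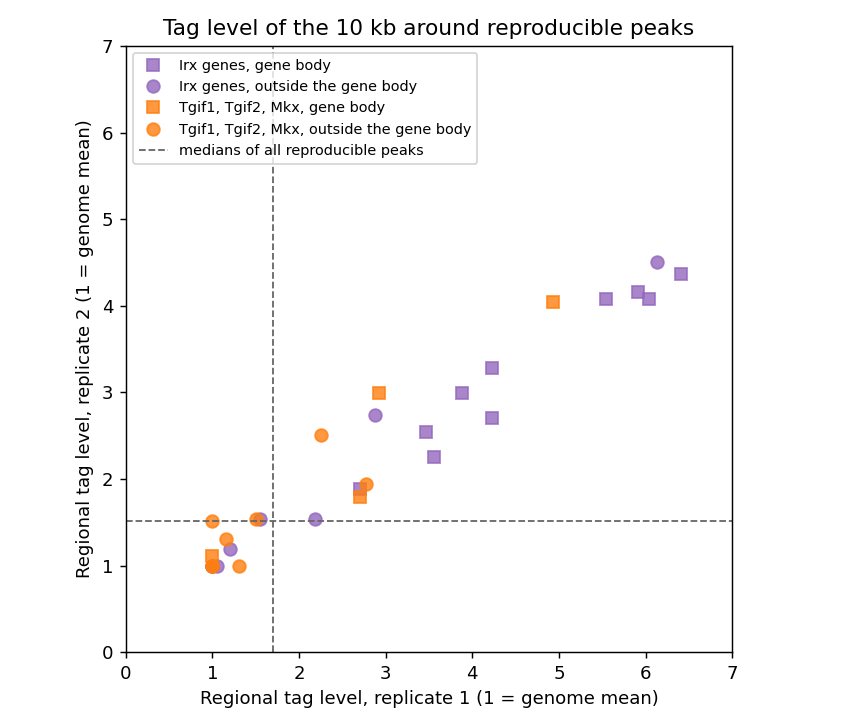
Regional tag level of the 10 kb around each of the 30 reproducible peaks, as a multiple of the genome mean, in MEIS2 replicate 1 (x axis) and replicate 2 (y axis). Dashed lines are the medians of all reproducible peaks, 1.69 and 1.51. The squares of Irx gene bodies lie to the right of and above both lines in both replicates. The circles outside the gene bodies run from the genome mean of 1, the lowest level that can be shown, to 6.14 and 4.50. Their medians were 1.37 and 1.37 for the Irx genes and 1.23 and 1.41 for Tgif1, Tgif2 and Mkx.

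By the rule as first given, most of the Irx gene bodies also held more than 1 reproducible peak. Of the 6 genes, 4 (Irx3, Irx1, Irx2 and Irx4) had at least 2 reproducible peaks in the body. Among the 4434 protein-coding genes of the same length range, 3.14 to 10.0 kb, 10.4% did. At least 1 was found in 5 of the 6 Irx genes and in 53.5% of those genes. The limit of 2 peaks was chosen after the values were seen. With a −log10 q of at least 5 asked of every list, none of the 4 genes kept 2 body peaks. The values that fell short were 4.40 (Irx3 and Irx2), 2.43 (Irx1) and 1.67 (Irx4) in replicate 2. In replicate 1 they were 2.79 (Irx2) and 4.92 (Irx4). Where the shared part had to be at least 50% of both peaks, Irx1 and Irx4 kept 2. The share of 10.4% was not worked out for these settings.

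Which of the 2 Irx clusters had more MEIS2 peaks in its windows depended on the library. The windows of Irx3, Irx5 and Irx6 (313 kb) held 7 reproducible peaks and those of Irx1, Irx2 and Irx4 (325 kb) 11, or 2.23 and 3.38 per 100 kb, a ratio of 0.660. In replicate 1 alone the windows held 13 and 16 peaks (ratio 0.843), and in replicate 2 alone 16 and 14 (ratio 1.19). The peaks found in replicate 2 only numbered 8 in the Irx3, Irx5 and Irx6 windows and 2 in the others, and those in replicate 1 only 5 and 4. The share of replicate 1 peaks that were reproducible was 7 of 13 (53.8%, Wilson interval 29.1 to 76.8) and 11 of 16 (68.8%, 44.4 to 85.8), so the intervals overlap widely. The windows of each cluster had 1 no-antibody peak. Of the reproducible peaks, 3 lay in the bodies of Irx3, Irx5 and Irx6 and 7 in those of Irx1, Irx2 and Irx4, which is 2.23 and 2.77 per 10 kb of gene body, and 4 lay outside the bodies in each cluster. The median lower-of-replicates fold enrichment was 4.46 and 4.86. A difference between the clusters beyond the spread of the replicates was not shown.

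The genes that correspond between the clusters by descent did not follow one order. Irx3 had 4 reproducible peaks and Irx1 2, with 2 in the body of each. Irx5 had 2 and Irx2 5, with none and 2 in the body. Irx6 had 1 and Irx4 4, with 1 and 3 in the body. Over the whole span of each cluster, including the sequence between the windows, there were 13 reproducible peaks in 982 kb and 21 in 1411 kb, or 1.32 and 1.49 per 100 kb (ratio 0.889). The ratio over the span was 1.02 for all replicate 1 peaks and 1.40 for all replicate 2 peaks. No-antibody peaks over the span numbered 2 for Irx3, Irx5 and Irx6 and 4 for Irx1, Irx2 and Irx4.

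**Figure D4:**
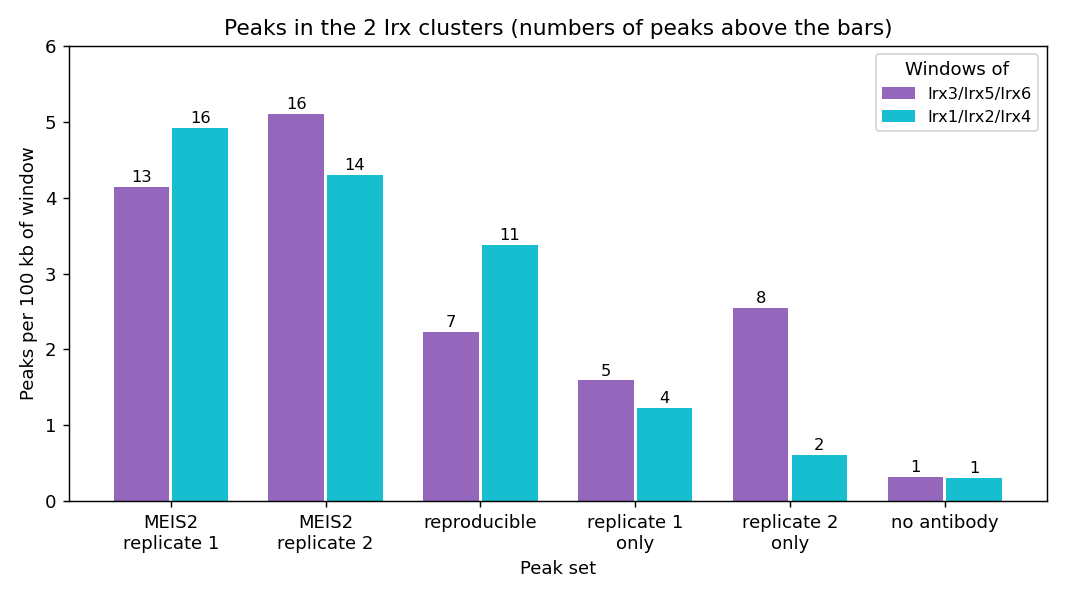
Peaks per 100 kb in the windows of Irx3, Irx5 and Irx6 (purple) and of Irx1, Irx2 and Irx4 (cyan), for each library, for reproducible peaks and for peaks found in 1 MEIS2 library, with the number of peaks above each bar. The purple bar is lower in replicate 1 (13 and 16 peaks) and higher in replicate 2 (16 and 14), and the largest gap is in peaks found in replicate 2 only (8 and 2).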

How the data were processed

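CUT&Tag libraries of mouse LGE were grouped by the antibody label. Per the file headers, the authors called peaks in each library alone using MACS 2.2.7.1 at a q cutoff of 0.05, keeping 1 tag per position and giving no control. Bowtie2 2.3.4, Trimmomatic, Picard, the build mm10 and a different MACS2 version, 2.1.4, are listed in the submitters' processing notes. Pileup, a signal in tags, was deposited without scaling to depth. Fold enrichment, a ratio, was deposited as (pileup + 1) / (expected pileup + 1). The −log10 values of p and q were also deposited as the caller wrote them. All positions are mm10 and 1-based. Peak length and depth differ between libraries, so pileup and fold enrichment were not tested between them.

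From these values, overlaps (at least 1 bp), counts per window and regional tags were computed with Python 3.11.15, pandas 2.3.3 and scipy 1.17.1. The overlap code was tested on simulated peaks. Genes and promoter stretches are RefSeq's for GRCm38.p6. Stretches were found for 5 of the 9 genes. Exons were not resolved. Wilson intervals cover counting error only. Named were all 9 genes, their start-site peaks and up to 3 other reproducible peaks of each with the highest lower-of-replicates fold enrichment. Further peaks were added after their values were seen. The genes, lists and rules were chosen with earlier results of these data known. The planned comparison with other TALE genes is not reported here.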

Additional observations from a re-analysis of the deposited data

How the results depend on the processing

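The count of 30 reproducible peaks became 16 with a −log10 q of at least 5 and 49 with 100 kb windows, and it was 42 to 46 from a single MEIS2 replicate. These and the other single-replicate values leave out peaks that touch the no-antibody list. The 50% reciprocal overlap was asked of the no-antibody list too, so MEIS2 peaks that overlap it by less were kept. In that setting the sites outside Irx6 and Irx1 that the control shares were therefore counted. The values of 4, 0.415 and 47.9% below include 1 or both of them. Irx5 then had 0 peaks, and the 1 at Irx6 was the shared site. For Irx3, Irx5 and Irx6, the 7 peaks became 4 with 50% reciprocal overlap and 3 with −log10 q of at least 5. They became 13 over the whole span and 12 to 15 from a single replicate. For Irx1, Irx2 and Irx4, the 11 became 5 with −log10 q of at least 5, 18 with 100 kb windows, 21 over the whole span and 13 to 15 from a single replicate. The ratio of 0.660 between the clusters lay between 0.415 (50% reciprocal overlap) and 0.889 (whole span) in the settings that use both replicates, and was 1.20 from replicate 2 alone and 0.830 from replicate 1 alone. The share of reproducible peaks was 47.9% with 50% reciprocal overlap and 44.4% with −log10 q of at least 5. Start-site peaks were found in 5 genes (either gene end, or −log10 q of at least 5) to 9 genes (replicate 1 alone). The shares over all protein-coding genes (54.1%) and all replicate 1 peaks (61.2%) belong to the main rule. They were not worked out for these settings, so the shifts cannot be set against those of all genes or peaks. The causes of the shifts were not tested, beyond what a wider window or fewer peaks do by construction. No paired analysis was possible because the groups share no replicate number in the labels and no test was made.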

Other observations

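By fold enrichment, the top reproducible peaks of both Irx clusters lay between the gene windows. In the cluster of Irx3, Irx5 and Irx6 it was chr8:92591380-92592037, 82.6 kb from Irx6, with pileups of 82 and 73 tags and fold enrichments of 17.8 and 17.9. In the cluster of Irx1, Irx2 and Irx4, chr13:72160713-72161071, 197 kb from Irx1, had 46 and 34 tags and fold enrichments of 22.2 and 19.5, and chr13:72035736-72036406, 72.2 kb from Irx1, had 55 and 45 tags and 15.9 and 15.3. By the lower of the replicate values they stood at percentiles 98.7, 99.4 and 96.9 of all reproducible peaks. No annotated gene overlaps any of them. Fto, whose introns are known in mouse and human for long-range elements that act on Irx3, ends 130.1 kb from Irx3, outside its window. Its 355 kb body held 6 reproducible peaks, 1.69 per 100 kb, with lower-of-replicates fold enrichments of up to 16.5. These sites were chosen after their values were seen.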
